A study of Arabidopsis thaliana with 4 samples.

Results

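Aquaporins are channel proteins that let water, and in some members small uncharged solutes, cross membranes. The set described here holds 31 aquaporin genes of Arabidopsis thaliana, out of 37686 genes in the expression table. They were chosen by locus identifier from the 4 classes of the family, a rule that uses no measured value, although earlier results of these data were known when the set was chosen. There are 13 plasma membrane intrinsic proteins (PIPs, in the subgroups PIP1 with 5 genes and PIP2 with 8), 10 tonoplast intrinsic proteins (TIPs, of the vacuolar membrane), 5 nodulin 26-like intrinsic proteins (NIPs) and 3 small basic intrinsic proteins (SIPs). A further 4 NIP genes are outside the set and are given beside it.

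RNA was sequenced from the wounded region of leaf explants of the wild-type accession Col-0, that is, the cut petiole and the tissue next to it. Seedlings had grown for 12 days at 22 °C on sucrose-containing 1/2 MS medium, with 16 h of light and 8 h of darkness. Explants were sampled before culture (time 0) or after 2 days in the dark at 22 °C on sucrose-containing B5 medium, with 2 libraries per group. Time since detachment, light, medium and age differ at once between the groups and cannot be told apart, and no transgene or mutant was used. Levels are in TPM, a length-corrected share of each library, so genes can be compared with each other, but the sequencing depth is unknown. No label states whether replicate libraries were made from separate plants. The p-values therefore reflect the scatter among these 4 libraries alone, and this scatter may be technical.

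Aquaporins fold into a pore typically lined by a pair of conserved boxes of asparagine, proline and alanine (NPA boxes). Some NIPs and the SIPs hold altered boxes, as given below. The channels assemble as tetramers. PIPs carry water across the plasma membrane and TIPs across the tonoplast, so that the balance of the classes bears on how cells take up water and how vacuoles fill. NIPs are relatives of a protein of soybean root nodules and carry solutes such as boric acid, while SIPs sit in the endoplasmic reticulum.

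The reference coding sequences showed where the classes differ. Proteins translated from RefSeq gene models (TAIR10.1) held 2 exact NPA triplets in each of the 13 PIPs and 10 TIPs. The 3 SIPs held 1 each, and of the 5 NIPs 1 held 2 triplets, 3 held 1 and 1 held 0. The proteins were 278 to 291 residues long in the PIPs, 249 to 268 in the TIPs, 288 to 305 in the NIPs and 237 to 243 in the SIPs. Identity between members ran from 65.4% to 97.21% among PIPs, from 37.89% to 92% among TIPs and from 34.21% to 80.07% among NIPs. Between PIPs and TIPs it ran from 26.12% to 35.71%, with a median of 32.52%.

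Coding sequence around the boxes is printed for 3 pairs of relatives that carry the results below. The boric acid channels NIP5;1 (AT4G10380) and NIP6;1 (AT1G80760), 63.61% identical in protein, had the largest differences among the NIPs. TIP1;1 (AT2G36830) and TIP1;2 (AT3G26520), 84.98% identical, moved in opposite directions, and their second boxes are shown. The second boxes of PIP2;2 (AT2G37170) and PIP2;3 (AT2G37180) are added because no other members share stretches of 50 bases with each other. Capitals mark the codons of the box, or of the triplet in its place, and the coding strand is shown 5′ to 3′.
NIP5;1 first box, chr4:6432357-6432389, minus strand: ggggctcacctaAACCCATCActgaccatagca
NIP5;1 second box, chr4:6431683-6431715, minus strand: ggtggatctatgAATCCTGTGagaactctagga
NIP6;1 first box, chr1:30351485-30351517, minus strand: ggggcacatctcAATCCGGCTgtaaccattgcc
NIP6;1 second box, chr1:30350790-30350822, minus strand: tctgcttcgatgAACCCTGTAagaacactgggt
TIP1;1 second box, chr2:15446163-15446195, plus strand: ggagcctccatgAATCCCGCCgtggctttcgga
TIP1;2 second box, chr3:9722914-9722946, minus strand: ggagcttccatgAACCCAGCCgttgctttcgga
PIP2;2 second box, chr2:15613884-15613916, minus strand: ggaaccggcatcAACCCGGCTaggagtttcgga
PIP2;3 second box, chr2:15618654-15618686, plus strand: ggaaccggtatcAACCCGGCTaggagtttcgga

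The summed level of the 31 genes overlapped between the groups, while the make-up of that sum changed. It was 13032 and 12575 TPM before culture and 12132 and 12859 TPM after it. PIP transcripts summed to 6228 and 6060 TPM before culture (6144 ± 119, mean ± SD, n = 2) and to 6920 and 7384 TPM after it (7152 ± 328). TIP transcripts went the other way, from 6704 and 6421 TPM (6563 ± 200.3) to 4942 and 5166 TPM (5054 ± 159). In both classes the groups stood apart. The ratio of the PIP means, 1.16, is below that of PIP1;2 (1.21), whose difference depended on the scaling as described below. The sums themselves were not rescaled. NIP transcripts rose from 13.2 and 14.5 TPM in sum to 120.3 and 152.3 TPM, and SIP transcripts from 85.8 and 79.5 TPM to 148.9 and 156.5 TPM, again without overlap.

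Within a library, the ratio of summed PIP to summed TIP transcripts does not depend on how that library was scaled. It was 0.929 and 0.944 at time 0 and 1.40 and 1.43 at 2 days. The TIP pool was thus the larger before culture and the PIP pool the larger after it, in both libraries of each group. On the log2 scale the ratio was higher by 0.595 at 2 days, and by 0.581 to 0.610 when each library was left out in turn. No p-value is given for these sums, since the genes were chosen as a set.

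**Figure D1:**
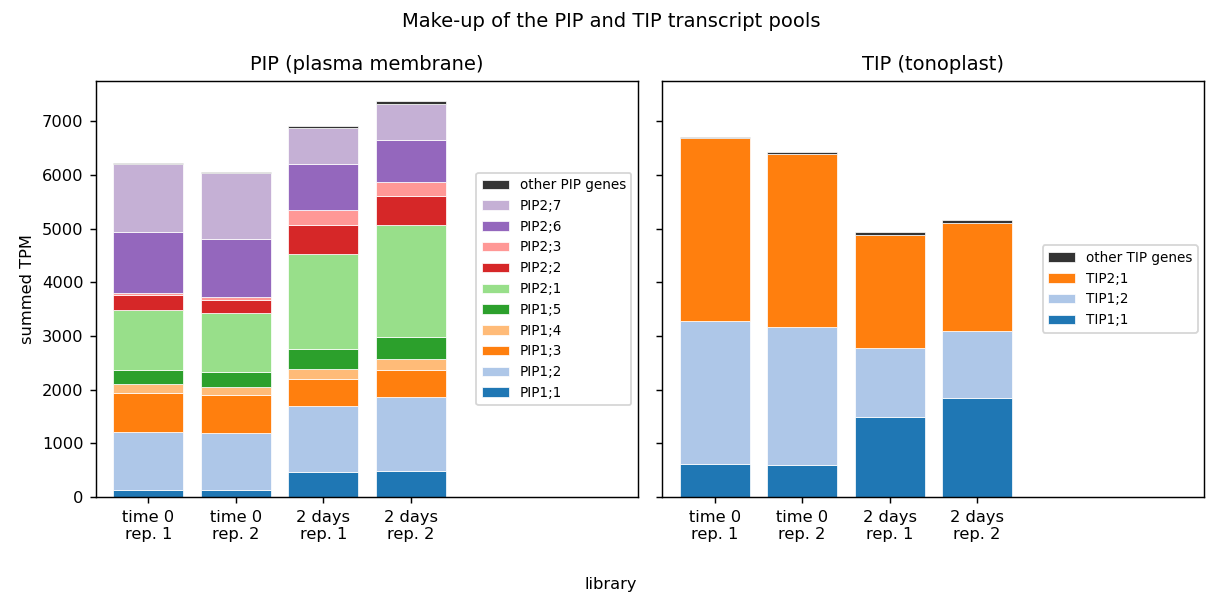
Stacked bars of TPM in each library (x axis) for the PIP genes (left) and the TIP genes (right), with genes that stay under 200 TPM in every library drawn together. PIP bars are taller at 2 days (6920 and 7384 TPM) than at time 0 (6228 and 6060 TPM), and TIP bars are shorter (4942 and 5166 against 6704 and 6421 TPM).

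Markers of the cell types in a leaf moved with the same comparison. The 5 mesophyll markers summed to 25539 and 24288 TPM at time 0 and 2799 and 2895 TPM at 2 days, with 4 lower and 1 (LHCB2.1) higher. Epidermal markers (4 genes) summed to 629.1 and 610.3 TPM before and 358.2 and 308.9 TPM after culture, with 2 lower and 2 not past the test. The lower sum rests mainly on PDF1, which went from 201.8 and 194 TPM to 2.63 and 1.28 TPM. The 4 guard cell lineage markers summed to 50.8 and 54.6 TPM before and 25.6 and 22.7 TPM after, with 3 lower and 1 not past the test. Phloem markers (4 genes) went from 183.2 and 175.2 TPM to 151.5 and 148.8 TPM, with 1 lower (SEOR1), 1 higher (FTIP1) and 2 not past the test, so the lower sum rests on SEOR1. Xylem markers (4 genes) went from 241 and 246.1 TPM to 125.8 and 129.5 TPM, with 2 lower and 2 not past the test. No marker of these 5 lists was listed at 0 in all libraries. Over all tested genes, 39.2% were higher and 29.5% lower. Fewer cells of a type and less RNA per cell cannot be told apart in such bulk samples, and the part of these shifts in the aquaporin results was not tested.

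Of the 31 genes, 25 reached a mean level of 1 TPM across the libraries and were tested. In limma's test at an adjusted p below 0.05, 19 were higher at 2 days, 5 were lower and 1 did not pass. Over all 19078 genes tested, 39.2% were higher and 29.5% lower, 68.8% in either direction. The median log2(TPM + 1) difference was 1.04 over the 25 tested aquaporins and 0.09 over all tested genes. Of the 25 genes, 3 were under 1 TPM at time 0 and reached the limit only through their 2-day values, so the counts and the median lean upwards. Among the 22 that averaged 1 TPM or more in both groups, 16 were higher, 5 lower and 1 not past the test. The groups of libraries did not overlap in 24 of the 25 genes, against 86% of all tested genes.

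By class, 9 of the 13 PIPs were higher, 3 lower and 1 not past the test, with a median log2 difference of 0.50. Over all tested genes 39.2% were higher and 29.5% lower, with a median of 0.09. Of the 5 tested TIPs 3 were higher and 2 lower, with a median of 1.37. Among the higher TIPs 1 was tested only through its 2-day values, which raises this median. The 2 that were lower were the most abundant of the class at time 0. The 4 tested NIPs were higher with a median of 2.95, but 2 of them could reach the limit only by being higher, and the fifth, with lower values at 2 days, was untested. The 3 SIPs were higher with a median of 1.16. All 5 aquaporins called lower were among the 7 most abundant at time 0, where they ranked 1, 2, 3, 5 and 7. The fifth NIP (rank 23) and a seed TIP (rank 26) also had lower values at 2 days but were untested. A gene under 1 TPM at time 0 that fell could not reach the limit, which favours this pattern of ranks. The level at time 0 also enters both the rank and the difference, so the pattern is only a description. Changes of at least 2-fold on the log2(TPM + 1) scale were found in 13 of the genes that rose and in 1 of those that fell.

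**Figure D2:**
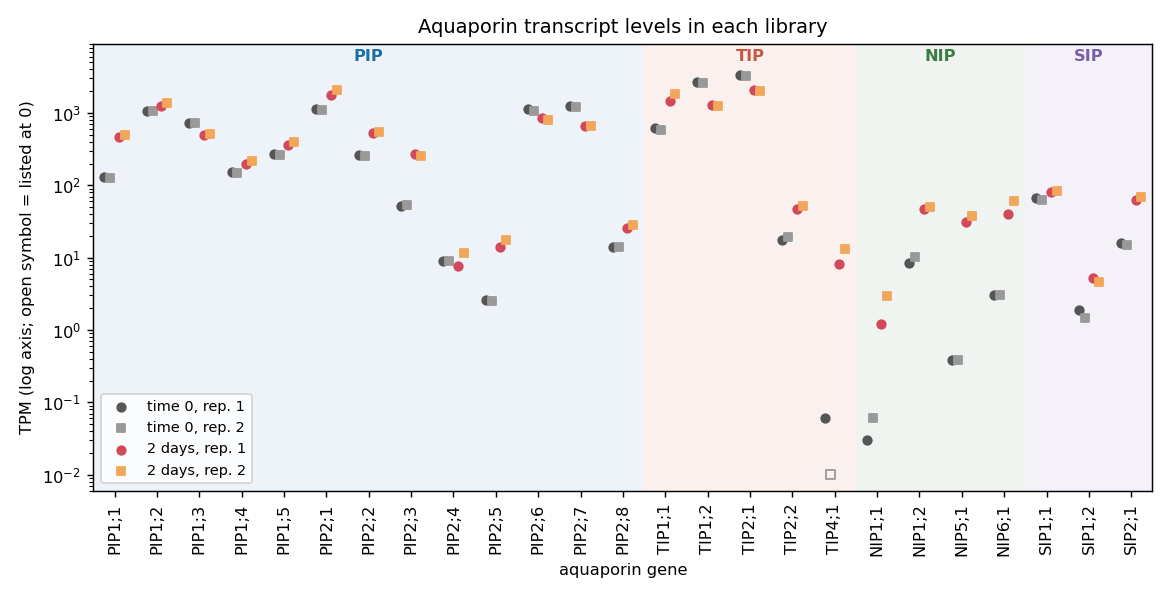
TPM on a log axis for each of the 25 tested aquaporin genes (x axis) in each of the 4 libraries, with an open symbol where a gene is listed at 0. PIP2;4 is the gene whose groups overlap, and the abundant genes at the top differ less between the groups than several of the scarce ones.

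In the PIP1 subgroup, whose proteins often need a PIP2 partner to reach the plasma membrane, 4 genes rose and 1 fell. PIP1;1 (AT3G61430) stood at 129.5 and 128.3 TPM before culture and at 458.6 and 488.7 TPM after it. Both 2-day libraries were far above both time 0 libraries, with a log2 difference of 1.87 ± 0.0552 (SE, limma adjusted p = 1.38e-05), and the gene went from 2.08% and 2.12% of PIP transcripts to 6.63% and 6.62%. PIP1;3 (AT1G01620) moved the other way, from 733.8 and 719.6 TPM (727 ± 10.03, SD) to 502.5 and 504.8 TPM (504 ± 1.65), without overlap (log2 difference -0.53 ± 0.0507 SE, limma adjusted p = 0.000498).

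PIP1;5 (AT4G23400) rose from 272.5 and 266 TPM to 363.7 and 400.5 TPM (log2 difference 0.50 ± 0.0653 SE, limma adjusted p = 0.00153). PIP1;4 (AT4G00430), a channel that also passes hydrogen peroxide, rose from 153.4 and 150.5 TPM to 194.6 and 214.6 TPM (log2 difference 0.43 ± 0.0649 SE, limma adjusted p = 0.00278). In both genes the 2-day libraries were apart from those of time 0, and after quantile normalization the differences were 0.30 and 0.26, still past the test.

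PIP1;2 (AT2G45960), a leaf channel that also facilitates carbon dioxide diffusion, was the most abundant PIP1 gene in every library. Its levels were 1083 and 1058 TPM (1071 ± 17.6, SD) before culture and 1233 and 1368 TPM (1300.2 ± 95.2) after it. The groups did not overlap, and the log2 difference of 0.28 ± 0.0726 (SE) passed limma's test (adjusted p = 0.0197). The call did not hold once time 0 replicate 1 (adjusted p = 0.17) or time 0 replicate 2 (adjusted p = 0.208) was dropped, nor when TPM were rescaled after removing organelle genes and the top 100 genes by level (log2 difference 0.15, adjusted p = 0.124). Its ratio to PIP1;3 was 1.48 and 1.47 at time 0 and 2.45 and 2.71 at 2 days, so the make-up of the subgroup differed between the groups whatever factor scales a library.

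Of the PIP2 genes, which form efficient water channels, 5 rose, 2 fell and 1 did not pass. PIP2;1 (AT3G53420), which carries water and hydrogen peroxide, went from 1119 and 1101 TPM (1110.3 ± 12.9, SD) to 1785 and 2097 TPM (1941 ± 221). It was the most abundant PIP of the 2-day libraries, with a log2 difference of 0.80 ± 0.0925 (SE, limma adjusted p = 0.000976). PIP2;7 (AT4G35100), the most abundant PIP at time 0 with 1262 and 1225 TPM (1244 ± 25.8), fell to 672 TPM in both 2-day libraries. Its log2 difference was -0.89 ± 0.0541 (SE, limma adjusted p = 0.000102).

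The shares of these leading PIP2 genes moved apart. The one that rose made up 17.97% and 18.2% of all PIP transcripts at time 0 and 25.8% and 28.4% at 2 days, while the one that fell went from 20.3% and 20.2% to 9.71% and 9.10%. Their ratio within a library was 0.887 and 0.899 before culture and 2.66 and 3.12 after it. PIP2;6 (AT2G39010), an abundant leaf form, went from 1131 and 1077 TPM (1104 ± 38.2, SD) to 859.1 and 792.2 TPM (826 ± 47.3). Both 2-day libraries were lower, with a log2 difference of -0.42 ± 0.068 (SE, limma adjusted p = 0.00351), a call that failed with time 0 replicate 1 left out (adjusted p = 0.0753). Its share of PIP transcripts was 18.2% and 17.8% before culture and 12.4% and 10.7% after it.

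The neighbouring pair whose boxes are printed above, PIP2;2 and the desiccation-responsive PIP2;3 (also known as RD28), lies on opposite strands of chromosome 2. The proteins are 96.84% identical, and 19.6% of the 50-base windows of the first transcript also occur in the second, so how reads were divided between them affects each level. PIP2;2 rose from 266.9 and 255.9 TPM to 534.5 and 538.7 TPM (log2 difference 1.04 ± 0.0516 SE, limma adjusted p = 5.57e-05). PIP2;3 rose from 52.1 and 53.1 TPM to 270.7 and 250.5 TPM (log2 difference 2.29 ± 0.0592 SE, limma adjusted p = 1.14e-05). Neither gene's groups overlapped. Their sum, which does not depend on the division, rose from 319 and 309 TPM to 805.1 and 789.1 TPM (log2 difference 1.34, limma adjusted p = 2.67e-05). The ratio of the first to the second was 5.12 and 4.82 at time 0 and 1.97 and 2.15 at 2 days, and this ratio does rest on the division.

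The scarcer PIP2 genes stood at 0.386% or less of PIP transcripts each in every library. PIP2;5 (AT3G54820), known to rise under drought, went from 2.59 and 2.48 TPM to 14.03 and 17.4 TPM (log2 difference 2.24 ± 0.126 SE, limma adjusted p = 7.90e-05). PIP2;8 (AT2G16850), 91.79% identical in protein to PIP2;7, rose from 14.04 and 13.94 TPM to 25.8 and 28.5 TPM (log2 difference 0.91 ± 0.0746 SE, limma adjusted p = 0.000285). This close pair moved in opposite directions and without overlap.

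PIP2;4 (AT5G60660), a channel known from roots, stood at 8.92 and 8.87 TPM before culture and at 7.56 and 11.7 TPM after it. The 2-day libraries lay on either side of those of time 0. Its log2 difference was 0.07, with a 95% interval of -0.42 to 0.57 (limma adjusted p = 0.747). A change of either sign within those bounds was not excluded. With 2-day replicate 1 left out the difference was 0.36 and passed (adjusted p = 0.033), in a fit where the lone 2-day library is assumed to vary as the time 0 pair does. With 2-day replicate 2 left out it was -0.21.

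The TIP pool was made almost wholly of 3 genes, and these did not move together. TIP2;1 (AT3G16240, delta-TIP), a channel for water and ammonia, had the highest mean of the family in both groups, and led in each library except 2-day replicate 2, where PIP2;1 was higher. It fell from 3397 and 3242 TPM (3320 ± 110, SD) to 2104 and 1999 TPM (2052 ± 74.1), with a log2 difference of -0.69 ± 0.0696 (SE, limma adjusted p = 0.000581). After quantile normalization the difference was smaller, -0.30, and still passed (adjusted p = 0.022). Opposite-strand genes overlap 13.96% of its exonic bases, and no source used here gives the strand setting of the counting. TIP1;2 fell from 2676 and 2571 TPM (2624 ± 74.1) to 1296 and 1256 TPM (1276 ± 28.3), with no overlap (log2 difference -1.04 ± 0.0627 SE, limma adjusted p = 9.90e-05). No other tested aquaporin fell as far on the TPM as deposited. After quantile normalization PIP2;7 fell further (log2 difference -0.84, against -0.76 for TIP1;2). The share of TIP1;2 in TIP transcripts went from 39.9% and 40.04% to 26.2% and 24.3%.

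TIP1;1 (gamma-TIP), a channel of the large central vacuole, rose instead, from 613.2 and 588.8 TPM (601 ± 17.3, SD) to 1486 and 1846 TPM (1666 ± 254). Both 2-day libraries were above both time 0 libraries, with a log2 difference of 1.46 ± 0.113 (SE, limma adjusted p = 0.000232). The ratio of this gene to its close relative was 0.229 in both libraries of time 0, against 1.15 and 1.47 at 2 days, so that it was the less abundant of the pair before culture and the more abundant after it. It made up 9.15% and 9.17% of TIP transcripts at time 0 and 30.1% and 35.7% at 2 days. The share of delta-TIP went from 50.7% and 50.5% to 42.6% and 38.7% over the same interval.

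The remaining tested TIPs, both typical of roots, rose from low levels. TIP2;2 (AT4G17340) went from 17.7 and 19.2 TPM to 46.9 and 51.6 TPM (log2 difference 1.37 ± 0.0777 SE, limma adjusted p = 8.22e-05). TIP4;1 (AT2G25810) was listed at 0.06 and 0 TPM before culture and at 8.27 and 13.2 TPM after it. It was close to absent from the time 0 libraries and had the largest log2 difference of the TIPs, 3.48 ± 0.228 (SE, limma adjusted p = 0.000131), which was 1.63 with a pseudocount of 5 and 6.38 with one of 0.1. Its share of TIP transcripts still reached only 0.256% in the higher of the 2-day libraries.

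The 5 other TIPs were under the limit and untested. TIP1;3 (AT4G01470) and TIP5;1 (AT3G47440), known from pollen, and TIP3;1 (AT1G73190), a channel of seed storage vacuoles, were listed at 0 in all 4 libraries. TIP3;2 (AT1G17810), also of seeds, was listed at 0.04 TPM in both time 0 libraries and at 0 at 2 days. TIP2;3 (AT5G47450), a root form, stood at 0.06 and 0 TPM before culture and at 0.61 and 0.25 TPM after it. Of 4 seed markers, the oleosins OLE1 and OLE2 were listed at 0 in every library and the 4 summed to between 0.02 and 0.18 TPM.

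**Figure D3:**
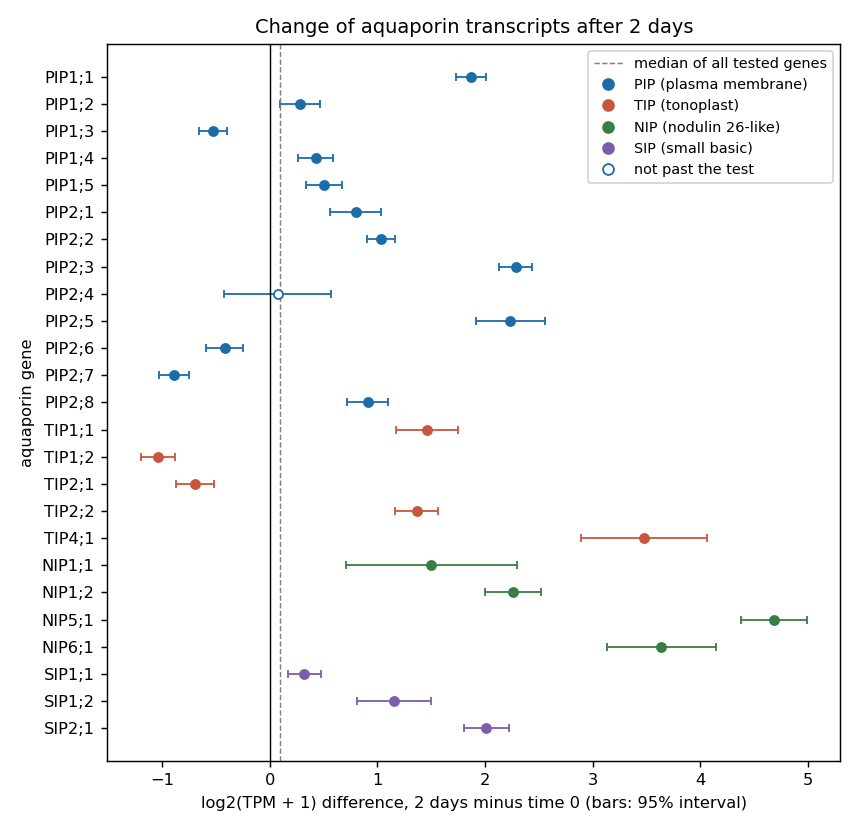
Differences in log2(TPM + 1) between 2 days and time 0 (x axis) with 95% intervals from limma for the 25 tested genes (y axis), coloured by class, with a dashed line at the median of all tested genes (0.09). PIPs and TIPs lie on both sides of 0, while the tested NIPs and SIPs lie to the right of it, and PIP2;4 (open symbol) spans 0.

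The 4 tested NIPs were higher at 2 days, with the largest differences in the boric acid channels. NIP5;1, which takes up boric acid in roots, was at 0.39 and 0.38 TPM before culture and at 31.5 and 38.1 TPM after it (34.8 ± 4.65, SD). With a pseudocount of 1 no other tested aquaporin had a larger log2 difference, 4.69 ± 0.12 (SE, limma adjusted p = 1.13e-05). The difference of NIP5;1 was 2.88 with a pseudocount of 5. With one of 0.1 it was 6.16, under the 6.38 of TIP4;1, so the first rank depends on the pseudocount. NIP5;1 reached the limit for testing only through its 2-day values. NIP6;1, which directs boron to young leaves, went from 3.07 and 3 TPM to 39.9 and 60.8 TPM (50.4 ± 14.8, SD), with a log2 difference of 3.64 ± 0.199 (SE, limma adjusted p = 7.33e-05). The 2-day libraries differed more from each other for this gene than for its relative, and both lay far above time 0. At 2 days both channels remained far below the abundant PIPs and TIPs.

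NIP1;2 (AT4G18910), which carries aluminium malate, rose from 8.45 and 10.3 TPM to 46.95 and 49.8 TPM (log2 difference 2.26 ± 0.102 SE, limma adjusted p = 4.17e-05). It was the leading NIP at time 0, with 64.02% and 70.8% of NIP transcripts, and held 39.03% and 32.7% at 2 days. NIP1;1 (AT4G19030), permeable to arsenite and 80.07% identical in protein to it, stood at 0.03 and 0.06 TPM before culture and at 1.2 and 2.97 TPM after it. All values of this gene are low, and its log2 difference of 1.5 ± 0.31 (SE, limma adjusted p = 0.00858) ran from 0.48 to 3.79 over these pseudocounts. The call was lost after quantile normalization (adjusted p = 0.0836).

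NIP2;1 (AT2G34390), a lactic acid channel induced by low oxygen in roots, was untested at 1.26 and 0.79 TPM before and 0.68 and 0.59 TPM after culture, and opposite-strand genes overlap 61.87% of its exonic bases. Of the 4 NIP genes outside the set, 2 were listed at 0 in every library and 2 reached the limit only through their 2-day values, so that their higher level there is no finding about direction. NIP3;1 (AT1G31885), for example, went from 0.09 and 0.17 TPM to 3.18 and 2.05 TPM (log2 difference 1.66, limma adjusted p = 0.0013), and the difference was 0.57 with a pseudocount of 5 and 3.55 with one of 0.1.

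Boron exporters of the BOR family, which work beside the NIP channels, were counted as a partner list. Of 7 genes 3 were tested, and 2 were higher and 1 lower, against 39.2% higher and 29.5% lower over all tested genes. BOR2 (AT3G62270) rose from 1.05 and 1.29 TPM to 41.04 and 35.7 TPM (log2 difference 4.18, limma adjusted p = 1.14e-05). BOR1 (AT2G47160), which loads boron into the xylem, rose from 19.3 and 19.7 TPM to 42.6 and 35.1 TPM (log2 difference 0.95, limma adjusted p = 0.000779). BOR3 (AT3G06450) fell from 37.9 and 37.6 TPM to 26.6 and 26.2 TPM (log2 difference -0.50, limma adjusted p = 0.000831). The exporter that was scarcest of the 3 before culture rose furthest. Its level at time 0 enters both the scarcity and the difference, so this is a description. Boron itself was not measured.

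**Figure D4:**
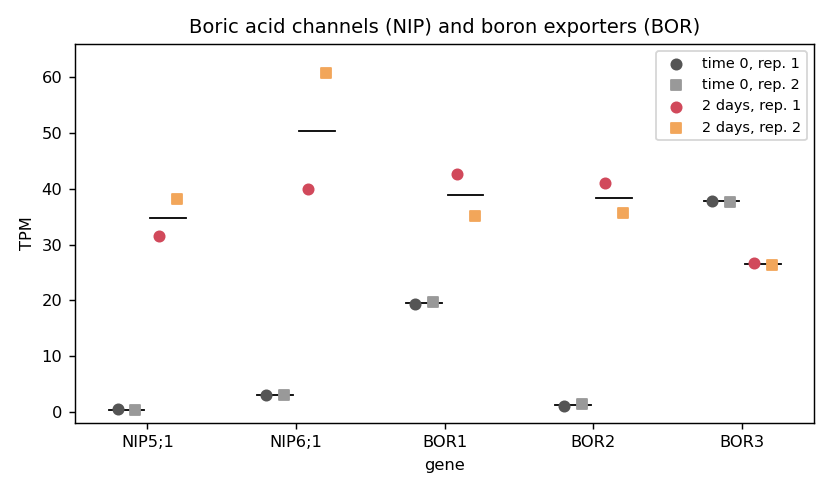
TPM (y axis) of a pair of NIP boric acid channels and of the boron exporters BOR1, BOR2 and BOR3 (x axis) in each library, with horizontal bars at the group means. Both channels and BOR2 lie near 0 at time 0 (0.38 to 3.07 TPM) and between 31.5 and 60.8 TPM at 2 days.

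The leader of NIP5;1 messenger RNA is known to carry start codons followed at once by a stop codon (ATGTAA), through which high boric acid lowers the RNA level in Arabidopsis. A search for these letters on the sense strand, chosen after the values were seen, found them in the annotated leaders of 2 of the 31 genes, this one and PIP2;5. They occur in 4.42% of 22828 annotated leaders (TAIR10.1), so a match is not rare. The leader of 886 bases holds 2 copies, 312 and 122 bases before the coding start, shown with the letters in capitals beside the single match of the PIP. NIP6;1, which also rose, has 0 copies in its leader.
NIP5;1 leader, chr4:6434805-6434834, minus strand: atctttcaaagcATGTAAatttaagtccta
NIP5;1 leader, chr4:6434615-6434644, minus strand: aaatttcaaatcATGTAAatttcgtctcta
PIP2;5 leader, chr3:20301888-20301917, plus strand: taaaaaaaacccATGTAAaatgatcattaa

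The 3 SIP genes rose. SIP2;1 (AT3G56950) went from 16.1 and 14.9 TPM to 61.8 and 69.5 TPM, without overlap (log2 difference 2.01 ± 0.0819 SE, limma adjusted p = 3.09e-05), and from 18.7% and 18.8% of SIP transcripts to 41.5% and 44.4%. Opposite-strand genes overlap 13.08% of its exonic bases. SIP1;2 (AT5G18290) went from 1.87 and 1.47 TPM to 5.22 and 4.66 TPM (log2 difference 1.16 ± 0.135 SE, limma adjusted p = 0.00102). SIP1;1 (AT3G04090), the most abundant SIP in every library, went from 67.9 and 63.1 TPM to 81.9 and 82.4 TPM. That rise was the smallest of the SIPs (log2 difference 0.32 ± 0.0583 SE, limma adjusted p = 0.00522), and it missed the threshold when time 0 replicate 2 was removed (adjusted p = 0.0577).

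Proton pumps energise the same membranes and were counted as partners of the 2 main classes. Of 11 plasma membrane proton pumps 7 were tested, with 3 higher, 2 lower and 2 not past the test (median log2 difference 0.19). These shares were near those of all tested genes, 39.2% higher and 29.5% lower. AHA2 (AT4G30190), a major plasma membrane pump, rose from 342 and 332 TPM to 695.5 and 632.7 TPM (log2 difference 0.98, limma adjusted p = 0.000149). AHA8 (AT3G42640) fell from 8.44 and 8.86 TPM to 4.59 and 4.04 TPM (log2 difference -0.86, limma adjusted p = 0.000978). Of 25 genes for vacuolar and endomembrane pumps 23 were tested, with 20 higher, 1 lower and 2 not past the test (median log2 difference 0.70, against 39.2% higher, 29.5% lower and a median of 0.09 over all tested genes). The ATPase subunit gene VHA-F (AT4G02620) rose from 166.1 and 182 TPM to 447.6 and 479 TPM (log2 difference 1.41, limma adjusted p = 5.47e-05). VHA-E3 (AT1G64200) fell from 32.8 and 36.4 TPM to 21.3 and 20.2 TPM (log2 difference -0.71, limma adjusted p = 0.000768).

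Of 12 tested genes for the trafficking and modification of aquaporins, 4 were higher, 4 lower and 4 not past the test (median log2 difference 0.08), shares near those of all tested genes. RMA1 (AT4G03510), a ubiquitin ligase of the endoplasmic reticulum related to a pepper ligase that acts on PIPs, fell from 14.05 and 13.97 TPM to 5.41 and 4.45 TPM (log2 difference -1.34, limma adjusted p = 0.000254). Its relative RMA2 (AT4G28270) rose from 5.53 and 4.7 TPM to 26.9 and 26.5 TPM (log2 difference 2.18, limma adjusted p = 3.50e-05). The groups did not overlap in either gene.

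The 250 bases before the annotated start of each gene (TAIR10.1) were searched on both strands for 4 short motifs. The W-box core TTGAC was found in 15 of the 31 aquaporin promoters (48.4%) and in 44.9% of 27443 promoters. The evening element core AATATCT was found in PIP1;4, TIP2;2, NIP1;2 and SIP1;2 (12.9%, against 10% of all promoters). The auxin response element TGTCTC was found in 1, that of SIP2;1 (3.2%, against 10.9%), and the G-box CACGTG in 0 of the 31, against 6.5% of all promoters. These are matches of letters in this window and say nothing of binding.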

How the data were processed

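RNA from 4 libraries of leaf explants was compared between time 0 and 2 days of culture, with groups taken from the sample titles and columns matched to samples by name. The authors deposited 1 table of TPM per gene with 2 decimals, and each column sums to 1000000 within rounding. TAIR10 is the build, and STAR 2.7.2b, RSEM 1.3.2 and Trim Galore 0.5.0 are the tools, listed per the submitters' processing notes. No annotation release, filter or strand setting is given in the sources used here. TPM keeps no depth, so no counting interval, detection floor or count test was applied. RSEM divides reads shared between copies, which makes their levels depend on that division.

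Fits used limma 3.58.1 (R 4.3.3) on log2(TPM + 1), with its variance prior following mean level, for the 19078 genes averaging 1 TPM or more. Benjamini-Hochberg adjustment ran over this whole set, and a gene was called when its adjusted p was below 0.05. On this scale the change of a low gene is understated. The procedure was tested on simulated data. The aquaporin genes and the partner and marker lists were chosen with earlier results of these data known. Every aquaporin gene is named. From each partner list the called genes with the largest rise and the largest fall are named, and BOR1 was added after its values were seen.

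Reference features came from RefSeq's annotation and genome of TAIR10.1, whose name differs from the TAIR10 of the files. All coordinates are those of TAIR10.1, and none comes from the deposited table. The first-numbered isoform of each gene was used, proteins were translated from its coding sequence with Biopython 1.88 in Python 3.11.15, and identity was taken over global alignments. Figures were drawn with matplotlib 3.10.9. Alternatives were other pseudocounts, filters, scalings, the fit without a trend, a replicate block, leaving out each library, sums of close copies (at least 90% protein identity) and the time 0 libraries averaged. The last of these, and the sum of PIP2;2 and PIP2;3 alone, were chosen after seeing the data. With a library left out, its group holds 1 library, whose spread is taken to be that of the other group.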

Additional observations from a re-analysis of the deposited data

How the results depend on the processing

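Under 13 alternatives, the counts of aquaporin genes called ran from 17 to 20 higher and from 4 to 5 lower, the PIP counts from 8 to 10 higher and 2 to 3 lower, and the TIP counts stayed at 3 higher and 2 lower. Over all genes the counts ran from 5773 to 7960 higher and from 4021 to 7187 lower. Leaving out each library gave 5773 to 7118 higher and 4021 to 5572 lower genes. Quantile normalization moved the median log2 difference of all tested genes from 0.09 to -0.06 and rescaling without organelle and the 100 most abundant genes moved it to -0.02, so differences as small as that of PIP1;2 depend on the scaling. The split of all called genes moved with them from 7485 higher and 5636 lower to 6385 higher and 7187 lower, and to 6495 higher and 6696 lower.

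PIP1;2, PIP2;6, NIP1;1 and SIP1;1 lost their calls under the alternatives named beside them. PIP1;2 also lost it without a filter (adjusted p = 0.0561), and averaging the time 0 libraries, a setting added once the data had been seen, cost PIP1;2 (adjusted p = 0.186) and PIP2;6 (adjusted p = 0.0602) theirs. Summing close copies gave the group's own direction, so PIP1;3 stands against a PIP1 sum with a log2 difference of 0.286 and PIP2;8 against a sum with PIP2;7 of -0.847, by the construction of the sums. With a pseudocount of 5 the differences of PIP2;5 (1.46), SIP1;2 (0.58) and AHA8 (-0.55) were smaller and still passed, as did SIP1;1 after rescaling (0.20). With the replicate number as a block, 7101 genes were higher and 5283 lower and no aquaporin call changed. Deviations of same-numbered libraries correlated at -0.0674 over the tested genes. With 2 libraries per group this rests on 1 contrast in each group, so it cannot tell whether the numbers pair the samples. TPM keeps no depth, so the precision of members near 0 cannot be given.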
